A study of Rattus norvegicus with 6 samples.

Results

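Slfn2 and Slfn3 are schlafen genes, measured here by 3 of the 40351 different probes on a kidney array: A_64_P161399 and A_44_P294675 for Slfn3 and A_64_P048887 for Slfn2. They were chosen by their place in the study's list of mRNAs that differed between low birth weight (LBW) and control kidneys, which names 100 genes, and because they lie near each other on chromosome 10. Since the values that selected them are the LBW and control levels themselves, those levels and their differences are given as descriptions, with no test. The lncRNA TCONS_00025089, whose probe lies within the bounds of the gene read by the Slfn3 probes and which was selected on the same contrast, is described beside them.

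Schlafen proteins take their name from the German word for sleep, after the first mouse members, which slowed the growth of T cells. Several family members are induced by type I interferon, and Slfn2 is known in mice for keeping T cells in a resting state. Slfn3 has been studied in the rat mainly in the lining of the gut, where it is tied to differentiation of epithelial cells.

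The samples were kidneys of male Sprague Dawley rats at postnatal day 10, with 1 array per rat. The 3 LBW rats were born to dams given a low-protein diet during gestation and kept on it over the first 10 days of lactation. The 3 control rats had a normal birth weight and were born to dams on a normal protein diet. The diet was given to dams, and the study does not state how many dams these rats came from. The rats counted as n = 3 in a group may therefore be littermates. Each one-colour array gave an intensity per spot, and values below are quantile normalized intensities on the log2 scale. A spot counts as well above background by the flag of the scanner software. The kidney label could not be checked here, since none of the 22 kidney marker genes listed for this purpose has a named probe.

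Slfn3 was lower in every LBW kidney than in any control kidney on both of its probes. On A_64_P161399 the log2 level was 3.46 in control 1, 6.17 in control 2 and 5.79 in control 3. It was 1.92 in LBW 1, 2.29 in LBW 2 and 1.65 in LBW 3. The groups did not overlap, and the gap between the lowest control and the highest LBW array was 1.17, but control 1 lay much closer to the LBW arrays than to the other controls. The means were 5.14 ± 1.47 in controls and 1.95 ± 0.32 in LBW kidneys (SD, n = 3 each), a log2 difference of -3.19. The probe was well above background on all 3 control arrays and on 0 of 3 LBW arrays, so its fold is a bound. For the bound, each LBW array took the higher of its own level and the lowest level of any probe well above background there. By this bound Slfn3 was 7.46-fold lower in LBW kidneys. The bound is approximate, since that lowest level is no detection limit and the spread among the controls is left out of it. In bulk kidney RNA, fewer cells that express a gene and less of its RNA per cell cannot be told apart.

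The second Slfn3 probe, A_44_P294675, gave the same order of groups at a lower intensity. Its log2 level was 2.92 in control 1, 4.78 in control 2 and 5.0 in control 3, against 2.42 in LBW 1, 1.67 in LBW 2 and 0.70 in LBW 3. Control 1 and LBW 1 were separated by 0.50, which is less than the SD of either group. On A_64_P161399 too the gap between the groups, 1.17, was less than the control SD of 1.47. The means were 4.23 ± 1.14 and 1.60 ± 0.86 (SD, n = 3 each), a log2 difference of -2.63. None of the LBW arrays had this probe well above background, and by its bound it was 3.73-fold lower in LBW kidneys. The bound of A_64_P161399 rests on the lowest level of any probe well above background on every LBW array. That of A_44_P294675 does so for LBW 2 and LBW 3. For LBW 1 it uses the probe's own level of 2.42. That is above the lowest level of 2.14 there, although the probe itself was not well above background. The bounds of the 2 probes differ, so they give no single fold for the gene.

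Slfn2 was measurable in all kidneys, and its difference was smaller. The log2 level on A_64_P048887 was 7.13 in control 1, 7.42 in control 2 and 7.86 in control 3, and 6.08 in LBW 1, 6.45 in LBW 2 and 6.15 in LBW 3. The arrays of each group lay closer together than for Slfn3. The groups did not overlap, but the gap of 0.68 was less than the range of 0.73 among the controls. The means were 7.47 ± 0.37 in controls and 6.23 ± 0.20 in LBW kidneys (SD, n = 3 each). The log2 difference was -1.24, or 2.36-fold lower in LBW kidneys, and all 6 arrays were well above background.

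TCONS_00025089 had control 1 as its lowest control, as did both Slfn3 probes, Slfn2 and 33.2% of all tested probes. Its log2 level, the mean of 3 spots, was 4.48 in control 1, 6.27 in control 2 and 6.25 in control 3, and 2.61 in LBW 1, 3.23 in LBW 2 and 3.82 in LBW 3. Controls 2 and 3 were nearly equal. Among the LBW arrays, LBW 3 had the highest level of the lncRNA and the lowest level of both Slfn3 probes. The means were 5.67 ± 1.03 and 3.22 ± 0.60 (SD, n = 3 each), a log2 difference of -2.45, or 5.46-fold lower in LBW kidneys. The probe was well above background on 3 control and 2 LBW arrays.

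**Figure D1:**
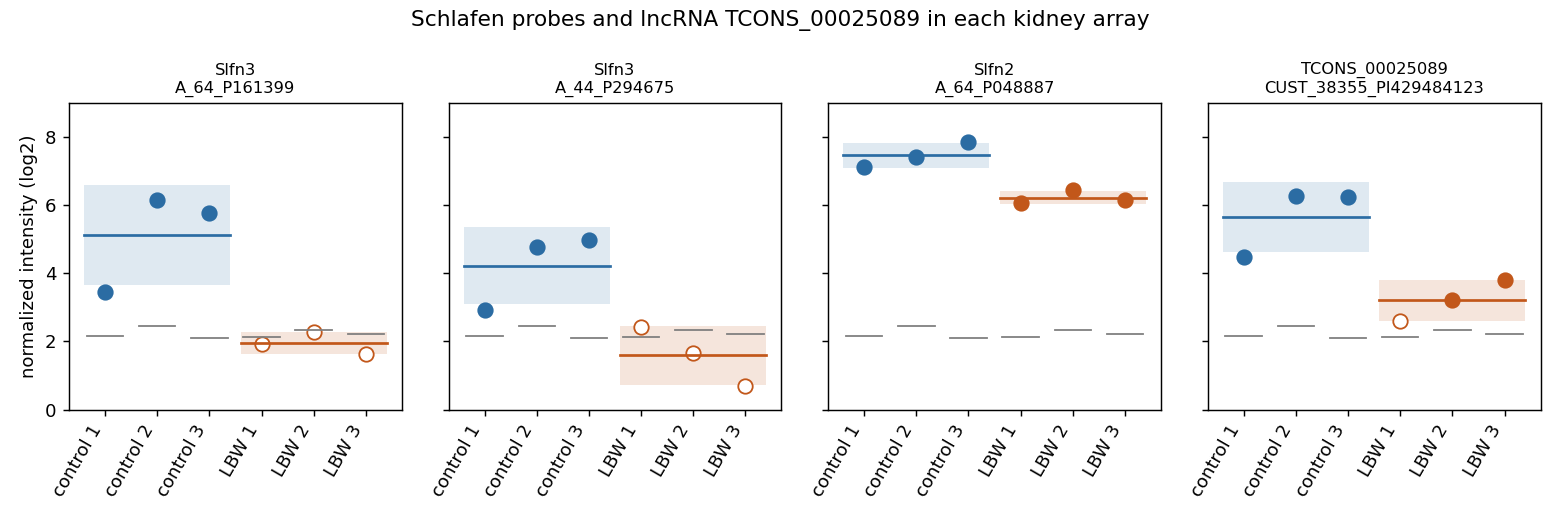
Normalized log2 intensity (vertical axis) of the Slfn3 probes, the Slfn2 probe and TCONS_00025089 on each array (horizontal axis); blue points are controls and orange points LBW, filled where the probe was well above background, coloured lines and bands are group means and SD (n = 3), and grey dashes mark the lowest level of any probe well above background on that array. Both Slfn3 probes lie near or under the grey dashes on the LBW arrays, whereas Slfn2 stays far above them on all 6 arrays.

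All 3 schlafen probes and the lncRNA probe had every LBW array below every control array. Over the 33537 probes tested with a value on every array, 12.1% did so, and nothing is read from the members' count, since they were picked on this contrast. Across all 33608 tested probes, 48 (0.143%) had an adjusted p under 0.05 by limma, of which 32 (0.0952% of those tested) were lower in LBW kidneys; no p is given for the schlafen probes themselves. The list was limited to a fold of 2 or more with an unadjusted p up to 0.05, on the study's own values. On the values used here, its probe lower in LBW kidneys with the smallest fold, A_44_P654845, had a fold of 1.991, and A_44_P605947, a probe at such a p with the largest fold under 2 that is not in the list, had a fold of 1.995.

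The intensities behind these levels show how little Slfn3 signal the LBW kidneys gave. On A_64_P161399 the scanner software's processed intensity, with its error for the spot, was 12.2 ± 2.07 in control 1, 69.2 ± 7.09 in control 2 and 54.1 ± 5.60 in control 3. In the LBW arrays it was 4.13 ± 1.64, 4.83 ± 1.85 and 2.54 ± 1.67. The LBW spots therefore lay less than 3 times their own error above 0, while the spots of controls 2 and 3 stood far above theirs. On A_44_P294675 the background-subtracted intensity of LBW 3 was -1.10, and that spot alone among the Slfn2 and Slfn3 spots was not marked as significantly above background. Slfn2 gave a processed intensity of 58.2 ± 6.07 in LBW 3, its lowest array before normalization, and 229.1 ± 25.3 in control 3, its highest. On the normalized log2 levels its lowest array was LBW 1, at 6.08. The repeated spots of TCONS_00025089 allow a view of the error within an array. Their SD on the log2 scale was between 0.022 and 0.16 in the controls and between 0.54 and 0.79 in the LBW arrays. LBW 2 differed from LBW 1 and from LBW 3 by less than the SD of its own spots, while LBW 1 and LBW 3 differed by 1.21, more than that SD. The Slfn2 and Slfn3 probes have 1 spot each, so they allow no such view.

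Control 1 lay further below the other controls in Slfn3 than in nearly any other probe. Its A_64_P161399 level was 2.52 below the mean of controls 2 and 3 on the log2 scale (-2.52), and 6 of 33537 tested probes had a difference as low or lower. For A_44_P294675 the difference was -1.97, reached by 16 probes, and for TCONS_00025089 it was -1.78, reached by 30. Slfn2 showed little of this, with -0.51, a difference that 7.49% of tested probes reached. Over all tested probes the median of this difference was 0.05, and 97.6% of probes lay within 1 of 0 on the log2 scale. Control 1 also stood somewhat apart as an array: its log2 values correlated with those of controls 2 and 3 at 0.987 and 0.988 across probes, against 0.993 between controls 2 and 3. Controls 2 and 3 correlated more with each LBW array, at 0.989 to 0.991, than with control 1. Probes, over which these correlations run, are no independent replicates.

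Without control 1 the differences were larger. By their bounds A_64_P161399 was then 13.3-fold and A_44_P294675 5.87-fold lower in LBW kidneys. Slfn2 was 2.66-fold lower, and TCONS_00025089 was 8.24-fold lower. For Slfn3 the log2 differences were smaller in size without either of the other controls. Without control 2 they were -2.67 for A_64_P161399 and -2.36 for A_44_P294675, and without control 3 they were -2.86 and -2.25. All arrays lay on 1 slide, with the controls and LBW 1 in its first row and LBW 2 and LBW 3 in the second. Within the first row, which leaves 1 LBW array, and likewise with the row as a block, the log2 difference was -3.22 for A_64_P161399, -1.81 for A_44_P294675, -1.39 for Slfn2 and -3.06 for TCONS_00025089. Background correction by the normexp method together with an added offset of 50 on each intensity brought the same differences to -0.69, -0.41, -0.81 and -0.73.

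The named probes most like Slfn3 over the arrays came from genes of several kinds. Likeness was taken as the root mean square difference of log2 levels over the 6 arrays after each probe was centred on its own mean, so that a smaller value is a closer match, and the mean of both Slfn3 probes itself departs from 0 by 1.66 on this measure. Usp18, a protease that removes the ubiquitin-like protein ISG15 and dampens interferon signalling, was the nearest of 33535 probes at 0.47 on its probe A_64_P157059, while its other probe, A_44_P284200, came in place 9 at 0.86. Ifit1, an interferon-induced protein that binds foreign RNA, was next at 0.53. Rtp4 at 0.67 and Irf7 at 0.77, the latter a transcription factor of the interferon response, came in places 4 and 6, and TCONS_00025089 in place 5 at 0.70. The other named genes among the 10 nearest were Ugt2b at 0.66, a glucuronidating enzyme, Sult1b1 at 0.80, a sulfotransferase, the olfactory receptor Olr666 at 0.84, the lncRNA TCONS_00053079 at 0.87 and Hnmt at 0.88, which methylates histamine. Slfn2 came in place 37 at 1.07. These names come from the study's own lists, so each of these genes was itself selected for differing between the groups, and nearness in this measure follows in part from that choice. The measure also depends on the size of a probe's differences, and many LBW levels in it are weak: Slfn3, Rtp4, Ugt2b, Sult1b1, Olr666, Hnmt and TCONS_00053079 were well above background on 0 of 3 LBW arrays and Ifit1 on 1 of 3, so these distances and places are not exact.

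The profile of Slfn2 was smaller in size. It departs from 0 by 0.67, and the nearest named probes were Pmfbp1 at 0.17, Oasl2 at 0.17, LOC100910885 at 0.20, the lncRNA XR_146533.1 at 0.21 and Bhmt at 0.21. Oasl2 belongs to the interferon-induced oligoadenylate synthetase family, and Bhmt is an enzyme of betaine and homocysteine metabolism. Of these 5, Oasl2 was also in place 20 and LOC100910885 in place 28 for Slfn3.

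Of 57 interferon-induced genes listed for this comparison, 6 had a named probe, with 7 probes in all: Ifit1, Irf7, Oas1i, Oasl2, Rtp4 and Usp18. All 7 were lower in LBW kidneys without overlap of the groups, as were 12.1% of tested probes, with a median log2 difference of -1.98 against 0.00 over all tested probes, or -1.60 with Rtp4, which was not well above background in LBW kidneys, at its bound. An adjusted p under 0.05 by limma was reached by 0 of the 7, and all 7 were lower at an unadjusted p under 0.05, as were 8.46% of all tested probes. The study's list, through which they are named, already required a small unadjusted p, so these counts were set by that choice and are no independent evidence of a direction. The control arrays differed among themselves here too. Control 1 was below controls 2 and 3 on all 7 probes, by a difference from their mean between -1.46 for Usp18 (A_64_P157059) and -0.56 for Oas1i, while 33.2% of all tested probes had control 1 as the lowest control. The summed intensity of the 7 probes was 388.3 in control 1, 706.4 in control 2 and 773.2 in control 3, and 168.7, 232.5 and 169.8 in LBW 1, LBW 2 and LBW 3. The probe of Oasl2 was the brightest, which does not rank transcripts, since probes differ in how well they bind. With each array left out in turn, 2 of the 7 probes had an adjusted p under 0.05 by limma without control 1, where 25 of 33806 tested probes did, and 0 without any other array. The part of these genes in the schlafen levels was not tested.

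**Figure D2:**
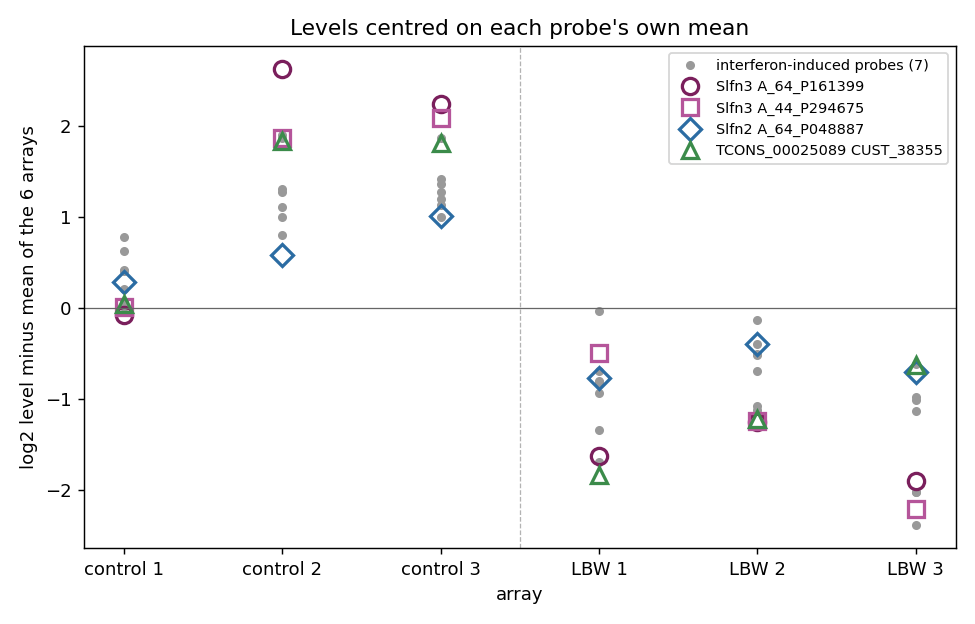
Log2 level minus each probe's mean over the 6 arrays (vertical axis) on each array (horizontal axis), for both Slfn3 probes, Slfn2, TCONS_00025089 and the 7 probes of interferon-induced genes (grey), with a dashed line between control and LBW arrays. In control 1 the Slfn3 probes and TCONS_00025089 lie near 0, well under their positions in controls 2 and 3, whereas Slfn2 varies less among the controls.

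Of the interferon ligands, receptors and signalling genes, 2 of 31 had a named probe, Irf7 and Usp18, with 3 probes that are also among the 7 above (median log2 difference -1.60). All 3 were lower without overlap, against 12.1% of tested probes; by limma 0 had an adjusted p under 0.05 and 3 an unadjusted p under 0.05, against 8.46% of tested probes lower at that level, and the choice of the list set these counts too. No interferon and no interferon receptor was among them. Markers of blood cells, in which schlafen genes are known to act, could be read from 1 gene per list. Igll1, a component of the receptor of early B cells, had a log2 level of 9.24, 8.62 and 8.77 in the controls and 7.26, 7.05 and 7.0 in the LBW arrays. Its highest array was control 1, the opposite of Slfn3. Lyz2, of monocytes and macrophages, had 6.50, 7.29 and 7.17 against 5.45, 5.84 and 5.93, with control 1 the lowest control as in Slfn3. S100a8, of neutrophils, was well above background on 0 of 3 LBW arrays and by its bound was 1.98-fold lower there. These are 1 of 7 B cell, 1 of 17 monocyte and macrophage and 1 of 11 neutrophil markers, each from the study's list of differing genes, and none of the 13 T cell markers had a named probe. The part of these cells in the schlafen levels was not tested.

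The probe sequences are shown because they decide which transcript each value reads. Those of Slfn2 and Slfn3 were not placed on the genome here, so their genes rest on the transcript accessions listed for them. Each is a 60-base probe, and no other probe on the array shares more than 14 bases in a row with any of the 4, on either strand. That compares probes with probes only, and binding to transcripts of other schlafen genes was not tested.
Slfn3 A_64_P161399: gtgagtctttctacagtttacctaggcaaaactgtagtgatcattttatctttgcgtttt
Slfn3 A_44_P294675: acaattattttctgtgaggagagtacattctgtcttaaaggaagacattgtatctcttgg
Slfn2 A_64_P048887: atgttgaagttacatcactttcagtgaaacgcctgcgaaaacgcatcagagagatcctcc
TCONS_00025089: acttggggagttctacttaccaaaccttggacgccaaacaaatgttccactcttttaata
The Slfn3 probes hold 35% G and C, TCONS_00025089 40% and Slfn2 45%.

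The names need care, because the gene behind both Slfn3 probes has changed its symbol. All 3 schlafen probes were matched by transcript accession to RefSeq on the GRCr8 assembly. The transcript given for both Slfn3 probes belongs there to the gene with ID 114247, listed as Slfn4 with Slfn3 as a synonym, while the symbol Slfn3 is carried by its neighbour, ID 501712. Slfn2 keeps its symbol (ID 303380). Along chromosome 10 the schlafen genes are listed in the order Slfn5, Slfn9, Slfn2, Slfn1, Slfn4, Slfn3, Slfn4l1 and Slfn14. The name Slfn3 is kept here in the sense of the array.

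The lncRNA probe lies inside the same gene. All 60 bases of the TCONS_00025089 probe matched chr10:68515581-68515640 on the plus strand of GRCr8. This position is within the bounds of the gene listed as Slfn4, which runs on the same strand, and ahead of the gene now listed as Slfn3. Whether it falls in an exon or an intron was not analysed here. On these arrays, signal from the lncRNA and signal from a transcript of the gene read by the Slfn3 probes cannot be told apart at this position.

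Start regions of the schlafen genes were searched for motifs tied to interferon, since the members were lower together. The motifs were GAAANNGAA, the first 9 bases of the core of the interferon-stimulated response element, and TTCNNNGAA, the gamma-activated site, on both strands. Each window runs from 250 bases before to 50 bases after a gene's start. Below are the RefSeq windows (GRCr8) of Slfn2, at chr10:68450611-68450910, and of the gene read by the Slfn3 probes, at chr10:68491970-68492269, both on the plus strand, with motif matches in capitals.
Slfn2: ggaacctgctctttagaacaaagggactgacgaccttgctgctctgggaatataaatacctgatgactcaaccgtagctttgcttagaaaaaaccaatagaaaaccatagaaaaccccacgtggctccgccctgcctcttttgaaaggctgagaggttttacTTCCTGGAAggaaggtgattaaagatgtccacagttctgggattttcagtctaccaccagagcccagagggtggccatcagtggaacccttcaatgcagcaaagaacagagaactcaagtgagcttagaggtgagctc
Slfn4 (Slfn3 of the array): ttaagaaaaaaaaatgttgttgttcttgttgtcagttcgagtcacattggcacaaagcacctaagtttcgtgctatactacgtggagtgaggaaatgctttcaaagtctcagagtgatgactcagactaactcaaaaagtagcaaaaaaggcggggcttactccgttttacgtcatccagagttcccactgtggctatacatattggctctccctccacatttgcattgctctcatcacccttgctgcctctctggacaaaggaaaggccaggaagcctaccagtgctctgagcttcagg
The Slfn2 window holds 1 match to TTCNNNGAA and 0 to GAAANNGAA, and the other window holds 0 of either. Among the other schlafen genes of chromosome 10, GAAANNGAA has 1 match in a window of Slfn5 and 1 in the window of the gene now listed as Slfn3 that holds the lncRNA probe, and TTCNNNGAA has 1 match in each of its other 2 windows, which overlap. The windows of Slfn9 and Slfn4l1 hold 0 of either, and Slfn1 and Slfn14 were not analysed here. Of 33469 windows of this length, 8.87% hold TTCNNNGAA and 9.71% hold GAAANNGAA. A match is a description of letters only, and its absence says only that these letters are not in this window. Since GAAANNGAA is only the first 9 bases of the core, a match to it need not hold the whole core.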

How the data were processed

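Kidney RNA of 3 control and 3 LBW rats was hybridized to one-colour Agilent arrays, 1 rat each. The authors read the images with Agilent Feature Extraction 10.7.1.1 and deposited the intensity of each spot, background-subtracted, with flags. They also deposited a log2 table, quantile normalized by the authors, used as an alternative (column medians 6.88).

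Intensities of 61411 non-control spots were quantile normalized, floored at 1 and log2 transformed. Outlier spots were dropped (570 to 646 per array) and spots of a probe averaged. Between 79.9% and 83.6% of spots per array were well above background. A probe was tested if at least a 0.5 share of its spots passed that flag on every array of 1 group or the other, using limma 3.58.1 and R 4.3.3 (two-sided, Benjamini-Hochberg over all probes), after a check on simulated data. With 3 rats a group, the smallest p of an exact permutation test is 0.1. Sequences and figures used Python 3.11.15 and matplotlib 3.10.9.

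Gene names came only from the study's lists. Genes named are the schlafen probes, TCONS_00025089, the 10 named genes nearest Slfn3 and 5 nearest Slfn2, and list members with probes. Members and lists were chosen with earlier results of these data known, and the motifs were added after seeing the values. Lists for T cells, kidney, the cell cycle and the gut brush border had no named probe. No other probe carried a schlafen name, so other schlafen probes were not tested.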

Additional observations from a re-analysis of the deposited data

How the results depend on the processing

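The 4 log2 differences were negative under all 13 alternatives and, apart from normexp, moved by less than 1 SD. This is no sign of stability: groups that do not overlap keep their direction when arrays are left out, the replicate block cannot move a balanced difference, the row block repeats the first-row value, and keeping outlier spots changed none of the 4. Normexp with an offset of 50 gave -0.69 for A_64_P161399, -0.41 for A_44_P294675, -0.81 for Slfn2 and -0.73 for TCONS_00025089; it changes the correction and the offset together, and an offset added to intensities this low shrinks log2 differences by its construction. Leaving out 1 array gave -4.03 to -2.67, -3.29 to -2.19, -1.41 to -1.05 and -3.04 to -2.15 in the same order. Slfn3 lies near background in LBW kidneys, so its fold is limited by signal over background.

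Of all tested probes, 48 had an adjusted p under 0.05 by limma. The count was 99 with normexp, 182 with a trended and robust variance, 7 with the slide row as a block, 1 in the first row of the slide only, 3 without a filter on dim probes and 2 by the methods' t-test. With 1 array left out it ran from 3 to 25: 25 without control 1, 10 without control 2, 4 without control 3, 9 without LBW 1, 4 without LBW 2 and 3 without LBW 3. The cause was not tested.

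Among interferon-induced probes limma gave 0 at an adjusted p under 0.05 (7 at an unadjusted p under 0.05), 2 with a trended and robust variance, and 0 to 2 with 1 array left out, the 2 being without control 1.

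The replicate block, with replicate number in the model, gave 0 probes by limma after adjustment (4839 before adjustment), against 48 by limma without the block; the methods' t-test, also without it, gave 2. The block left the 4 differences at -3.19, -2.63, -1.24 and -2.45. Deviations of same-numbered arrays correlated at 0.030, 0.059 and -0.014 across probes, against -0.073 to 0.036 for differently numbered arrays. The sample labels give these arrays no more in common than a number. Whether they share a litter or a batch was not tested.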
